A study of Mus musculus with 6 samples.

Results

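Transcripts of 10 genes of the Hippo-YAP pathway were followed in mouse embryonic stem cells in which protein synthesis had been blocked. The genes were chosen by name, with earlier results of these data in view. All 10 were among the 17485 gene rows of the count files: the target genes Ctgf, Cyr61 and Ankrd1, the feedback regulator and target Amotl2, the kinases Lats1 and Lats2, the coactivators Yap1 and Wwtr1, and the DNA-binding partners Tead1 and Tead2. The cells were E14, an established stem cell line of 129/Ola background, kept on gelatin in medium with 15% serum and 1000 U/mL of leukaemia inhibitory factor. Treatment began 24 h after plating. One group of 2 libraries received cycloheximide, which stops ribosome elongation, at 250 µg/mL for 3 h, and another group of 2 libraries received the same dose for 6 h. The drug was carried in 0.007% ethanol. The 2 control libraries came from cells given ethanol without the drug for 9 h. Control and treated cells thus also differed in hours of ethanol exposure. If treatment began 24 h after plating in every group, time from plating to harvest differed as well. These differences cannot be told apart from that in drug. No label says whether the 2 libraries of a group came from separate cultures, so the p-values measure the spread between these libraries, which may be technical.

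In the Hippo pathway the kinases MST1/2, encoded by Stk4 and Stk3, activate LATS1 and LATS2, which phosphorylate the coactivators YAP and TAZ (the latter encoded by Wwtr1) and so hold them in the cytoplasm or mark them for destruction. When the kinases are inactive, YAP and TAZ enter the nucleus, bind TEAD transcription factors and switch on genes such as Ctgf, Cyr61, Ankrd1, Amotl2 and Lats2. The products of Amotl2 and Lats2 restrain YAP, which closes a negative feedback loop. In the early mouse embryo this pathway separates trophectoderm, where YAP is nuclear, from the inner cell mass that gives rise to embryonic stem cells. Ctgf and Cyr61 are also classed as immediate-early genes, which cells can transcribe without making new protein.

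Library totals ranged from 9385447 to 27351079 counts, with the 6 h libraries deepest. All 10 stem cell markers checked had counts in each group. Their summed level ranged from 6980 to 7130 CPM in control libraries, from 8030 to 8280 CPM after 3 h of drug and from 5560 to 5740 CPM after 6 h. CPM, the usual depth-adjusted count, was taken on library totals scaled by the trimmed mean of M values (TMM), which assumes that most genes do not change. The scaling factors were 0.872 to 0.875 in control and 1.11 to 1.13 at 6 h, so the scaling differed by group. Among markers of other cells, 7 of 9 listed fibroblast genes had rows in the files, and these summed to 8.45 to 11.2 CPM in control, 4.59 to 10.7 CPM after 3 h and 4.37 to 8.09 CPM after 6 h, with Col1a2 and Dcn at 0 counts in every control and 3 h library. The 9 primitive endoderm genes summed to 70.8 to 78.9, 75.1 to 83.1 and 61.4 to 61.7 CPM in the same order. The 7 trophoblast genes with rows, of 8 listed, summed to 54.8 to 66.0, 50.3 to 53.2 and 44.6 to 47.3 CPM, with Cdx2 at 0 to 3 counts per library. None of these 3 lists had a higher summed level at 6 h than in control.

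Gene by gene the lists were less even, where called means an edgeR adjusted p under 0.05 over all genes tested. The stem cell sum at 3 h was carried by Sox2 (2282 and 2602 CPM in control, 3849 and 3958 CPM after 3 h): the median log2 fold change of the list was -0.06 with 4 of 10 above 0 and 2 called higher, and at 6 h it was -0.355 with 0 of 10 above 0 and 4 called lower. The endoderm sum is mostly the basement membrane genes Lama1, Lamb1 and Col4a1, whereas the list's median log2 fold change was 1.119 at 3 h (5 of 9 above 0) and 0.66 at 6 h (6 of 9). Gata4, Sox17 and Pdgfra lay above both controls in every treated library, with Gata4 at 0.593 and 3.54 CPM in control, 5.75 and 7.11 CPM after 3 h and 4.26 and 5.29 CPM after 6 h. Sox17 had only 7 and 6 counts in control, and Pdgfra 6 and 4. Gata6 overlapped its controls (2.37 and 0.367 CPM in control, 2.01 and 2.38 CPM at 6 h). Dab2 and Foxa2 each had a 3 h library below both controls (0.258 and 0.231 CPM). The share of all genes without overlap was not computed. Of the endoderm genes, edgeR called 0 higher at either time (2 of 9 at an unadjusted p under 0.05 at 3 h) and 1 lower at 6 h. The trophoblast list had a median of -0.15 at 3 h and -0.29 at 6 h, with 2 of 6 tested genes above 0 at each time, and at 6 h 2 were called higher and 1 lower. The fibroblast sum in control is mostly Thy1 (6.30 and 7.82 CPM in control, 4.19 and 1.84 CPM at 6 h). Only 3 of the 9 listed fibroblast genes were tested, with medians of 0.504 at 3 h and -0.147 at 6 h, and 0 were called. Over all 12755 genes tested, 4.90% were called at 3 h, 3.60% higher and 1.30% lower. At 6 h 29.0% were called, 14.8% higher and 14.3% lower. Some markers of these lists thus changed in the same libraries as the members, in both directions, and their part in the results was not tested. The series is titled as bulk, yet the submitters' design note speaks of single-cell RNA sequencing. Each deposited table holds 1 value per gene for 1 library, and they were treated as bulk. In bulk RNA, fewer cells of a type and less RNA per cell cannot be told apart.

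The genes lie apart in the genome. In GENCODE M21, whose GRCm38 assembly is the mm10 named in the submitters' processing notes, the targets are Ctgf (named Ccn2 there) at chr10:24595442-24598683, Cyr61 (Ccn1) at chr3:145646976-145649981, Ankrd1 at chr19:36111961-36120099 and Amotl2 at chr9:102716672-102733418. The kinases are Lats1 at chr10:7681214-7716460 and Lats2 at chr14:57689662-57758388. Yap1 spans chr9:7931999-8004596 and Wwtr1 chr3:57455649-57575910. Tead1 spans chr7:112679318-112906807 and Tead2 chr7:45215753-45233644. All are protein-coding. The exons of Ctgf share 665 bases with Gm15270 on the opposite strand, those of Yap1 share 116 bases with Gm20416 and those of Tead2 share 13 bases with Cd37, also opposite. Lats2 shares 2955 exon bases with Gm49361 on its own strand. Whether the counting used strand is not given in the sources used here, so reads of such overlapping genes could be counted for the member.

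TEAD factors bind the sequence GGAATG, and the start regions of the members were searched for it on both strands. RefSeq start regions (GRCm38.p6) were matched for 8 of the 10 genes, leaving Ctgf and Tead1, and the 250 bases before each start were used. GGAATG was found for 5 of these 8 genes, namely Cyr61, Amotl2, Ankrd1, Yap1 and Wwtr1, against 14.4% of the 27025 genes in the same table. The matches are shown with 10 bases on either side, read on the strand that holds the motif, with the motif in capitals, because the genes that rose and the genes that did not can be compared at this site.

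Cyr61, chr3:145650073-145650098, plus strand: aaacatctcaGGAATGttggttggcg

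Amotl2, chr9:102717729-102717754, minus strand: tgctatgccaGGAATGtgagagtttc

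Ankrd1 farther site, chr19:36120039-36120064, minus strand: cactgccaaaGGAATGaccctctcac

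Ankrd1 nearer site, chr19:36119952-36119977, minus strand: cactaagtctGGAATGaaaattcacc

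Yap1, chr9:8004722-8004747, minus strand: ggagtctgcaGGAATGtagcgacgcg

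Wwtr1, chr3:57576031-57576056, minus strand: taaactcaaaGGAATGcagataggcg

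The motif lay 103 bases before the start of Cyr61 and 65 bases before that of Amotl2, in both cases on the strand opposite to the gene. Ankrd1 held it 210 and 123 bases before its start, Yap1 141 bases before, and Wwtr1 136 or 170 bases before its 2 starts, all on the strand of the gene. GENCODE places the whole Ankrd1 window and 136 of the 250 bases of the Amotl2 window in exons of those genes, so a longer transcript may begin upstream of these RefSeq starts. The single match of Cyr61 sits in the following stretch before its start (chr3:145649986-145650235, minus strand, motif in capitals as it reads on the gene's strand), shown in full because Cyr61 is a classical YAP target and its window overlaps no annotated exon.

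Cyr61 start region: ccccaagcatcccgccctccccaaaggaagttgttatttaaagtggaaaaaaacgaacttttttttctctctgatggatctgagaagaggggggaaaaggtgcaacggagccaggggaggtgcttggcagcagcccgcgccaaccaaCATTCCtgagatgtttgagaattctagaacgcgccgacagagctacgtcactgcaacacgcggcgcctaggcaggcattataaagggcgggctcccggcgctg

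The AP-1 motif TGANTCA (7.82% of genes) and the serum response factor motif known as the CArG box (1.62% of genes) had no match in the windows of these 8 genes. Of the 5 genes with GGAATG, Cyr61, Amotl2 and Ankrd1 are described as higher after cycloheximide in the next paragraphs and Yap1 and Wwtr1 are not. Lats2, which has no match in its 2 windows, was higher. Both windows (chr14:57746124-57746373 and chr14:57734419-57734668, minus strand) lie inside the GENCODE gene, so the region before its GENCODE start was not searched. Such matches describe letters only, and binding was not measured.

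The first question is how the target genes responded. Ctgf, which encodes a secreted matricellular protein, held 10.2 and 9.29 CPM in the control libraries. After 3 h of drug it held 45.3 and 47.4 CPM, and after 6 h it held 36.8 and 35.4 CPM. Every treated library was thus above both controls, and the 6 h libraries lay between control and 3 h. The log2 fold change was 2.25 ± 0.15 (SE) at 3 h (edgeR adjusted p = 0.000187) and 1.89 ± 0.15 (SE) at 6 h (adjusted p = 0.000172). This corresponds to 4.75-fold and 3.70-fold higher levels, the largest called rises among the members apart from Ankrd1, whose control libraries held 0 counts.

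Cyr61, a close relative of Ctgf in the CCN family of matricellular proteins, behaved in the same order. The control libraries held 7.63 and 11.2 CPM, the 3 h libraries 32.0 and 35.5 CPM, and the 6 h libraries 21.1 and 24.8 CPM. No treated library overlapped the controls. The log2 fold change was 1.86 ± 0.22 (SE) at 3 h (edgeR adjusted p = 0.00323) and 1.30 ± 0.21 (SE) at 6 h (adjusted p = 0.00392).

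Amotl2 encodes an angiomotin that binds YAP at cell junctions and is itself a YAP target. It held 133 and 189 CPM in control, 362 and 374 CPM at 3 h, and 264 and 321 CPM at 6 h. The groups did not overlap, and the control libraries were the most spread in proportion. The log2 fold change was 1.19 ± 0.17 (SE) at 3 h (edgeR adjusted p = 0.00925) and 0.86 ± 0.17 (SE) at 6 h (adjusted p = 0.00801). The call at 3 h was lost without 3 h replicate 1 (adjusted p = 0.0719) or 3 h replicate 2 (adjusted p = 0.0775), and the call at 6 h without 6 h replicate 2 (adjusted p = 0.0629).

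Ankrd1, a muscle and stress-responsive ankyrin repeat protein widely used as a YAP reporter gene, was at the edge of detection. It had 0 and 0 counts in control, 5 and 2 counts at 3 h, and 39 and 31 counts at 6 h, the last equal to 1.29 and 1.19 CPM. A count of 3 over the control group equals 0.138 CPM. Against that floor the measured level of Ankrd1 was 1.54-fold higher at 3 h and 8.97-fold higher at 6 h. Counting error in the treated libraries is not included, so these are not strict lower bounds. The rise was called at 6 h (edgeR adjusted p = 0.0135) and not at 3 h (adjusted p = 0.183). Ankrd1 entered the test only through its 6 h libraries, and its call at 6 h was lost without 6 h replicate 1 (adjusted p = 0.0673) or 6 h replicate 2 (adjusted p = 0.0688). With libraries thinned to the smallest total it did not pass the filter on low counts.

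**Figure D1:**
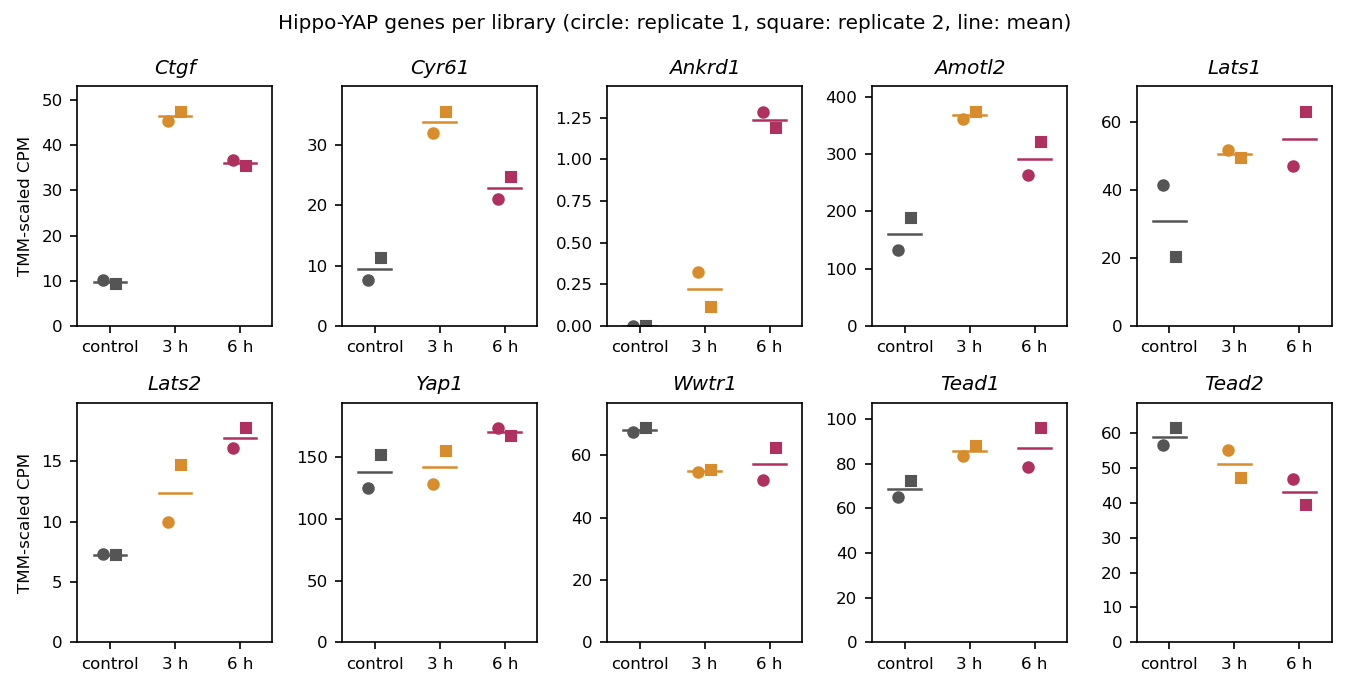
Level of each of the 10 genes in each library, on the vertical axis as TMM-scaled CPM from 0 with a separate scale per gene, for control, 3 h and 6 h of cycloheximide; circles are replicate 1, squares replicate 2 and lines the group mean (n = 2). Ctgf, Cyr61 and Amotl2 are highest at 3 h, Ankrd1 and Lats2 are highest at 6 h, and the control libraries of Lats1 lie far apart (41.5 and 20.3 CPM).

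The kinases formed the next group. Lats2, itself a YAP target and one of the pathway's brakes, held 7.34 and 7.21 CPM in control, 10.01 and 14.7 CPM at 3 h, and 16.1 and 17.8 CPM at 6 h. Its levels were ordered control, 3 h, 6 h with no overlap between groups. The log2 fold change was 0.76 ± 0.24 (SE) at 3 h, which did not pass (edgeR adjusted p = 0.0975), and 1.22 ± 0.24 (SE) at 6 h, which did (adjusted p = 0.00702). The 6 h call was lost without 6 h replicate 2 (adjusted p = 0.0551).

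Lats1, the related kinase with the same substrates, held 41.5 and 20.3 CPM in control, 51.7 and 49.3 CPM at 3 h, and 47.1 and 63.0 CPM at 6 h. All treated libraries were above both controls, but the controls differed from each other by more than the treated libraries did. Neither its 3 h log2 fold change, 0.69 ± 0.29 (SE), nor its 6 h value, 0.81 ± 0.29 (SE), passed (edgeR adjusted p = 0.187 and 0.0650). The 6 h value did pass with DESeq2 (adjusted p = 0.0260) and with limma-voom (adjusted p = 0.0483). With no filter on low counts both values passed (edgeR adjusted p = 0.00270 at 3 h and 5.32e-05 at 6 h). Without the filter adjusted p-values fell at nearly unchanged fold changes, as for Ctgf at 3 h (edgeR adjusted p = 2.34e-24 beside 0.000187). The no-filter p-values therefore do not mean stronger evidence for Lats1. The result rested on which control was used. Without control replicate 1 the log2 fold change became 1.31 at 3 h (adjusted p = 0.0132) and 1.44 at 6 h (adjusted p = 0.00302), and without control replicate 2 it became 0.28 and 0.41.

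Yap1, which encodes the main coactivator of the pathway, held 125 and 151 CPM in control, 128 and 155 CPM at 3 h, and 173 and 167 CPM at 6 h. Control and 3 h libraries overlapped. The log2 fold change was 0.04 at 3 h (95% interval -0.28 to 0.36) and 0.30 at 6 h (interval -0.02 to 0.63), and neither passed (edgeR adjusted p = 0.893 and 0.139). Wwtr1, which encodes the paralogous coactivator TAZ, held 67.6 and 68.7 CPM in control, 54.7 and 55.2 CPM at 3 h, and 52.2 and 62.3 CPM at 6 h. Its treated libraries were below both controls, yet neither log2 fold change passed, at -0.31 for 3 h (interval -0.62 to 0) and -0.25 for 6 h (interval -0.56 to 0.06) (edgeR adjusted p = 0.203 and 0.196).

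Tead1 and Tead2 encode TEAD factors through which YAP and TAZ reach DNA. Tead1 held 65.2 and 72.3 CPM in control, 83.7 and 88.1 CPM at 3 h, and 78.6 and 96.0 CPM at 6 h. Its treated libraries were above both controls, but the 3 h log2 fold change of 0.32 and the 6 h value of 0.35 missed the threshold (edgeR adjusted p = 0.201 and 0.0974). Tead2, a TEAD factor that is active in early embryos, held 56.5 and 61.3 CPM in control, 55.0 and 47.2 CPM at 3 h, and 46.7 and 39.4 CPM at 6 h. Its treated libraries were below both controls, but the 3 h log2 fold change of -0.20 and the 6 h value of -0.45 (95% interval -0.79 to -0.11) missed it as well (edgeR adjusted p = 0.436 and 0.0529). The 6 h value of Tead2 lay close to the threshold and passed it with DESeq2 (adjusted p = 0.0299) and with limma-voom (adjusted p = 0.0484).

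The scaling mattered for these modest values. With library size alone, the median over the tested genes was shifted on the log2 scale from 0.025 to 0.252 at 3 h, and from 0.043 to 0.398 at 6 h. On that scale Yap1 and Tead1 were called higher at 6 h, with log2 fold changes of 0.66 (adjusted p = 0.00964) and 0.70 (adjusted p = 0.00763), and Lats1 as well, at 1.17 (adjusted p = 0.0176). Wwtr1 changed sign to 0.11 at 6 h, while Ctgf, Cyr61, Amotl2, Ankrd1 and Lats2 remained called at 6 h. Tead2 was at -0.095 (adjusted p = 0.642). At 3 h Lats2 (0.99, adjusted p = 0.0379) and Tead1 (0.55, adjusted p = 0.0470) were called higher on that scale.

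Over the members, 3 of 10 were called at 3 h (Ctgf, Cyr61 and Amotl2), all higher. Over all 12755 genes tested in that comparison, 4.90% were called, 3.60% higher and 1.30% lower. At 6 h 5 of 10 were called, all higher, with Lats2 and Ankrd1 added. Ankrd1 passed the filter only through the group where it is high, and without it 4 of 9 were called. Of all genes tested at 6 h, 29.0% were called, 14.8% higher and 14.3% lower. DESeq2 and limma-voom each called 7 of 10 members at 6 h, 6 higher and 1 lower (Tead2). They called 3932 and 3619 of all 12755 genes. The median log2 fold change of the members was 0.73 at 3 h and 0.84 at 6 h, beside 0.025 and 0.043 over all genes tested. With Ankrd1 set to its fold over the control floor of 3 counts, the median of the members was 0.66 and 0.84. The comparisons at 3 h and 6 h share the control libraries. The 10 genes were named with earlier results of these data in view, so their counts are a description.

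**Figure D2:**
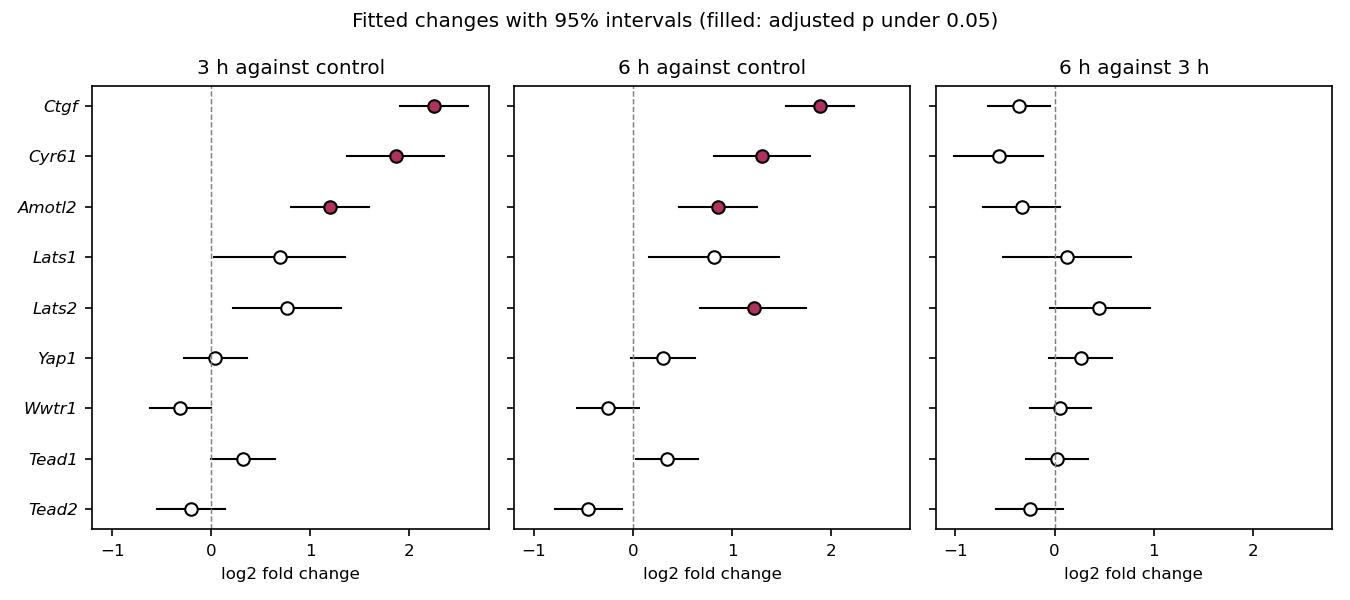
Log2 fold change (horizontal axis) of 9 members in the 3 comparisons, with points as fitted by edgeR, bars as 95% intervals and filled points for adjusted p under 0.05. Ankrd1 is left out because its controls held 0 counts; Ctgf, Cyr61 and Amotl2 are called at 3 h and 6 h, Lats2 at 6 h, and none between 6 h and 3 h.

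Comparing 6 h directly with 3 h asks whether the response was still building or receding. None of the 10 genes was called (edgeR), with 3 at an unadjusted p under 0.05, and DESeq2 and limma-voom also called 0. Over all genes tested 1.64% were called. The 3 genes were Cyr61, at -0.56 ± 0.20 (SE; adjusted p = 0.183), Ctgf, at -0.36 ± 0.14 (SE; adjusted p = 0.208), and Ankrd1, at 2.48 ± 0.86 (SE; adjusted p = 0.184). The 6 h libraries of Ctgf, Cyr61 and Amotl2 all lay below their 3 h libraries, and those of Ankrd1 and Lats2 above, but these orders did not hold up against the replicate error after adjustment.

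Ratios of counts within a library do not depend on the scaling, and they were compared between libraries for the 4 pairs of related genes. The control libraries had Tead1 to Tead2 ratios of 1.15 and 1.18, the 3 h libraries had 1.52 and 1.87, and those at 6 h had 1.68 and 2.43. For Yap1 to Wwtr1, controls gave 1.84 and 2.20, the 3 h libraries gave 2.35 and 2.81, and those at 6 h gave 3.32 and 2.68. For both pairs every treated library was above both controls. For Lats1 to Lats2 the same libraries gave 5.66 and 2.81, then 5.16 and 3.36, then 2.92 and 3.55, with overlapping groups. For Ctgf to Cyr61 they gave 1.33 and 0.826, then 1.42 and 1.33, then 1.74 and 1.43. The 4 treated libraries were set against the 2 controls in an exact two-sided permutation test of the mean log2 ratio, added after the ratios had been seen. The exact test gave p = 0.0667 for Tead1 to Tead2 and for Yap1 to Wwtr1, the smallest this design allows (0.133 adjusted over the 4 pairs), 0.133 for Ctgf to Cyr61 and 0.867 for Lats1 to Lats2. No pair could therefore pass 0.05, so the test cannot decide whether any ratio differed.

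**Figure D3:**
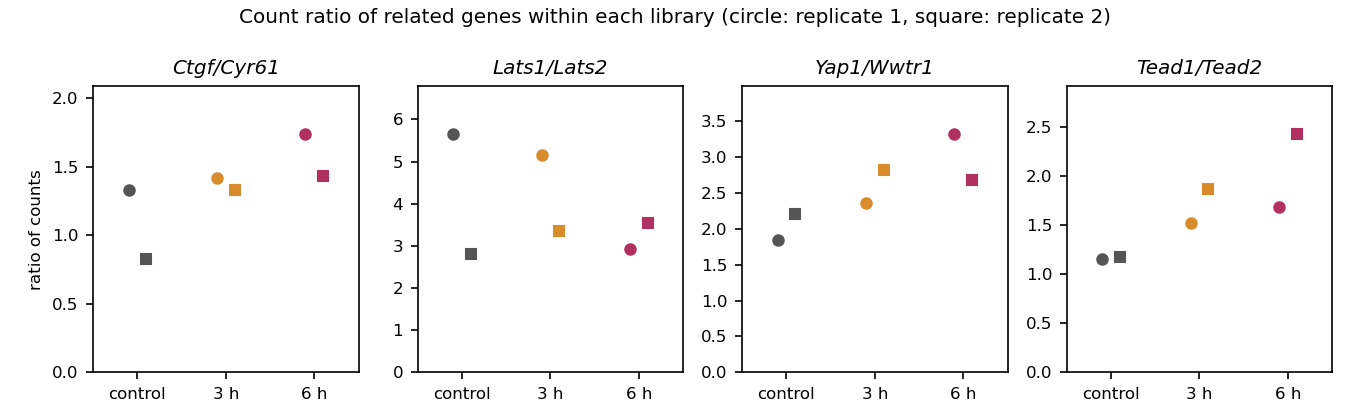
Ratio of the counts of related genes within each library (vertical axis, no unit, from 0) in control, 3 h and 6 h of cycloheximide; circles are replicate 1 and squares replicate 2. The Tead1/Tead2 and Yap1/Wwtr1 ratios of all 4 treated libraries lie above both controls, while the Lats1/Lats2 ratios overlap.

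The other genes of the pathway were taken from 3 lists. The list of YAP and TEAD targets known from cancer cells has 22 genes, 5 of them members. Without the members, 14 of 17 were tested. At 3 h 1 was called, higher, and at 6 h 5 were called, 3 higher and 2 lower, with median log2 fold changes of 0.38 and 0.05. These are 7.14% and 35.7% of the 14, beside 4.90% and 29.0% of all genes tested, so the shares lie near the background. Among the genes called higher at 6 h, Tgfb2 passed the filter on low counts only through treated libraries, where it is high. With the members included, 19 were tested, of which 4 were called at 3 h, all higher, and 10 at 6 h, 8 higher and 2 lower. These are 21.1% and 52.6% of the 19. Of all genes tested, 3.60% were called higher at 3 h, and 14.8% higher and 14.3% lower at 6 h. The 5 members among the 19 were named with earlier results of these data in view. The 19 also hold Ankrd1 and Tgfb2, which passed the filter only through treated libraries. The genes called at 6 h were the same 10 with DESeq2 and limma-voom, while at 3 h DESeq2 called 7 of the 19, 5 higher and 2 lower.

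Gadd45a, a stress-responsive regulator of growth arrest, had the smallest p of this list at 6 h. It held 111 and 118 CPM in control, 339 and 320 CPM at 3 h and 379 and 440 CPM at 6 h, with log2 fold changes of 1.53 ± 0.12 (SE; edgeR adjusted p = 0.000341) and 1.84 ± 0.12 (SE; adjusted p = 6.11e-05). Nuak2, a kinase related to AMPK, rose from 8.22 and 7.70 CPM in control to 17.7 and 16.5 CPM at 6 h, by 1.10 ± 0.20 on the log2 scale (SE; adjusted p = 0.00518). Tgfb2, a ligand of the TGF-beta family, had 6 and 0 counts in control, against 14 and 13 counts after 3 h and 116 and 82 counts after 6 h. Its log2 fold change of 3.70 ± 0.80 at 6 h (SE; adjusted p = 0.0105) was 2.96 without control replicate 2, and no fold is given without control replicate 1, which leaves a control of 0 counts. Its call was lost without 6 h replicate 1 (adjusted p = 0.0723) or 6 h replicate 2 (adjusted p = 0.0589).

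Fjx1, a secreted protein related to Drosophila four-jointed, went the other way. It held 22.0 and 18.6 CPM in control, 12.3 and 9.48 CPM at 3 h, and 2.31 and 2.42 CPM at 6 h. The log2 fold change of -3.10 ± 0.24 (SE) at 6 h was called (edgeR adjusted p = 0.000147) and that of -0.90 ± 0.22 (SE) at 3 h was not (adjusted p = 0.0532). The 3 h value lay near the threshold and passed it with DESeq2 (adjusted p = 0.0140), limma-voom (0.0485), median-ratio scaling (0.0487), no filter (0.00745) and a minimum of 50 counts in 2 libraries (0.0493). Genes of the target list thus moved in both directions. The other gene of the list that fell was Ptpn14.

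**Figure D4:**
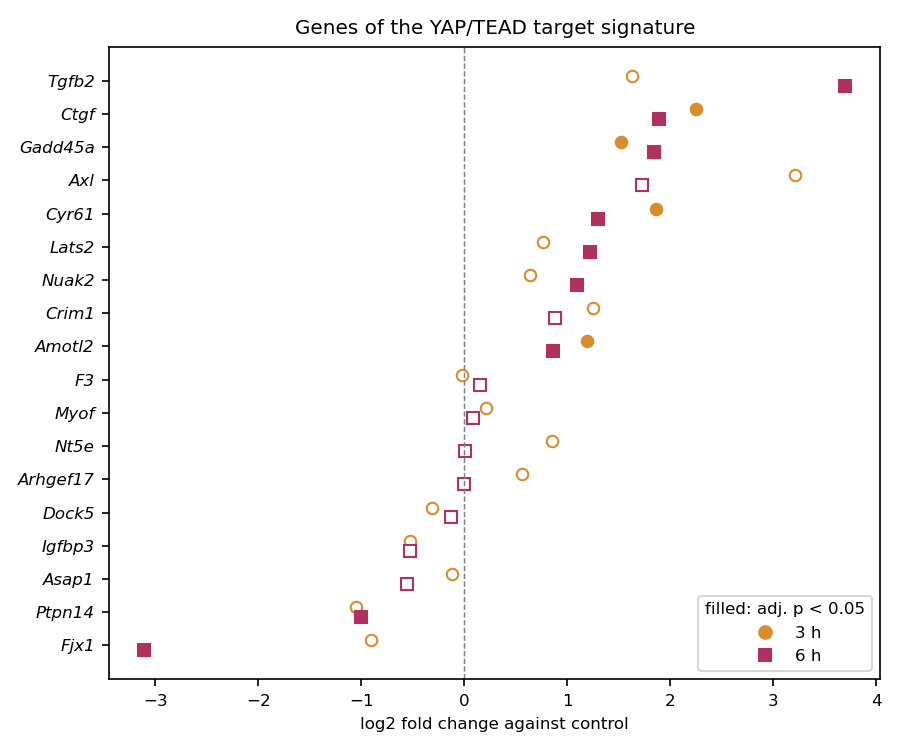
Log2 fold change against control (horizontal axis) of the 18 tested genes of the YAP/TEAD target list other than Ankrd1, ordered by the 6 h value; circles are 3 h, squares 6 h, and filled symbols have an adjusted p under 0.05. Tgfb2 (3.70 at 6 h) and Fjx1 (-3.10) lie at the ends, with Ctgf, Gadd45a and Cyr61 among the genes called higher at 3 h and 6 h.

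The list of kinases and upstream regulators has 24 genes, of which 3 are members. Without the members, 17 of 21 were tested, and their median log2 fold change was -0.18 at 3 h and -0.42 at 6 h. None was called at 3 h (edgeR; 5 at an unadjusted p under 0.05, 0 called by limma-voom and 3 by DESeq2, all lower), and 5 were called at 6 h, all lower. That is 29.4% of the 17, close to the 29.0% of all genes tested that were called in either direction (14.3% lower). Nf2, which encodes the tumour suppressor Merlin that activates LATS kinases at the membrane, held 106 and 110 CPM in control and 69.4 and 64.6 CPM at 6 h, which is -0.69 ± 0.13 on the log2 scale (SE; adjusted p = 0.00591). Stk4, which encodes MST1, held 113 and 112 CPM in control and 76.3 and 71.9 CPM at 6 h, which is -0.60 ± 0.12 on the log2 scale (SE; adjusted p = 0.00686). The 6 h libraries of both genes lay below the controls and below the 3 h libraries. Ptpn14, a phosphatase that retains YAP in the cytoplasm, held 7.71 and 9.41 CPM in control and 3.89 and 4.64 CPM at 6 h, a difference of -0.998 ± 0.306 on the log2 scale (SE; adjusted p = 0.0397). Taok2, a kinase that activates MST1/2, held 32.9 and 33.9 CPM in control and 24.2 and 23.6 CPM at 6 h, a difference of -0.48 ± 0.14 (SE; adjusted p = 0.0344). The remaining gene, named after its values were seen, was Map4k4. Between 6 h and 3 h 0 of the 17 were called (edgeR; 3 at an unadjusted p under 0.05, 0 called by DESeq2 or limma-voom).

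These falls depended on the scaling. With library size alone, the log2 fold changes at 6 h were -0.33 for Nf2 (adjusted p = 0.0687), -0.25 for Stk4 (adjusted p = 0.125), -0.64 for Ptpn14 (adjusted p = 0.147) and -0.12 for Taok2 (adjusted p = 0.524), and none of these 4 was called. Without 6 h replicate 2 the calls of Nf2 (adjusted p = 0.0540), Stk4 (adjusted p = 0.0602), Ptpn14 (adjusted p = 0.126) and Taok2 (adjusted p = 0.165) were lost too. That of Taok2 was lost without any one of the 6 libraries, and that of Ptpn14 also without control replicate 2 (adjusted p = 0.116) or 6 h replicate 1 (adjusted p = 0.196). Taok2 also missed the threshold in a fit of only the libraries compared (adjusted p = 0.0527), and Ptpn14 with libraries thinned to the smallest total (adjusted p = 0.0537).

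In the list of 10 coactivators, TEAD factors and VGLL cofactors, 8 were tested and 0 were called at 3 h or 6 h (edgeR; 1 and 2 at an unadjusted p under 0.05). DESeq2 and limma-voom called 0 at 3 h and 1 at 6 h, the member Tead2. Apart from the members, the tested genes were Tead3, Tead4, Vgll3 and Vgll4, with log2 fold changes at 6 h from -0.88 to 0.34 and adjusted p-values of at least 0.329.

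The genes whose levels were most like those of Ctgf and Cyr61 were sought among 5783 tested genes with a mean of at least 20 CPM in their highest group, by the Euclidean distance between log2 CPM centred on each gene's mean over the 6 libraries. Nearest to Ctgf were Rnd3 (distance 0.528), Bcdin3d (0.534) and Id3 (0.634). Nearest to Cyr61 were Spin4 (0.380), Bcdin3d (0.604) and its fellow member Amotl2 (0.611). Rnd3 averaged 9.18 CPM over the controls, 31.8 CPM over the 3 h libraries and 30.2 CPM over the 6 h libraries. With 3 groups of 2 libraries, many genes can share such a pattern.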

How the data were processed

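RNA from 6 libraries of E14 cells was analysed, 2 per group. The values the authors deposited are raw counts, whole numbers for each gene in a separate table per library. The RNA was isolated with TRIzol, given sample barcodes and run as 1 pool, per the labels' protocols. The build named is mm10, per the submitters' processing notes. The aligner, counter, strandedness and use of molecular identifiers are not given in the sources used here. It is therefore unknown whether reads cover whole transcripts, and levels are not compared between genes.

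Genes were kept by edgeR's filterByExpr (10 counts in the median library in at least 2 libraries, total of 15), leaving 12755. The main test was edgeR 4.0.16 (R 4.3.3), a quasi-likelihood fit of group means over all 6 libraries with TMM scaling and 3 residual degrees of freedom before moderation. Two-sided p-values were Benjamini-Hochberg adjusted over all genes tested, with a threshold of 0.05. SE is the fitted log2 change divided by the root of F. CPM values are given per library. Replicate libraries differed beyond counting noise in each group (chi-square per degree of freedom from 18.7 to 27.7). The floor of 3 counts covers counting error in the control group only.

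Alternatives used DESeq2 1.42.0, limma-voom 3.58.1, 3 other scalings, 2 other filters, a replicate block, the compared libraries alone, thinned libraries, no mitochondrial genes, and leaving out each library. Named genes were the members, up to 4 further genes per list with the largest change among those called against control, and the 3 genes most like Ctgf, Cyr61 and the member with the smallest p at 6 h, which was Ctgf. The members and lists were chosen with earlier results of these data known.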

Additional observations from a re-analysis of the deposited data

Results flagged for a closer look

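Effects at 3 h and 6 h of cycloheximide that differed by the direct test of 6 h against 3 h are given here. Over all genes tested, 209 differed (edgeR, adjusted p under 0.05), and none was a member. Of the other pathway genes named, Fjx1 differed, with a log2 fold change of -2.20 from 3 h to 6 h (adjusted p = 0.00497; both 6 h libraries below both 3 h libraries). This call was lost without 3 h replicate 1 (adjusted p = 0.0576), 6 h replicate 1 (adjusted p = 0.0648) or 6 h replicate 2 (adjusted p = 0.103).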

How the results depend on the processing

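Between 3 h and control 625 genes were called. The count was 1447 with DESeq2, 1373 with library size alone, 1816 with no filter and 218 with only the libraries compared, and 97 to 1031 when 1 library was left out. At 6 h 3703 genes were called, and 1273 to 3628 when 1 library was left out. Between 6 h and 3 h 209 were called, against 688 with DESeq2, 508 with limma-voom, 1063 with no filter and 563 with only the libraries compared, and 12 to 596 when 1 library was left out. With library size alone 95.8% of calls at 3 h were higher (73.4% on the TMM scale) and 88.2% at 6 h (50.8%), and between 6 h and 3 h 56.5% (27.8%). Members called at 3 h numbered 5 with library size alone and 5 with no filter, and at 6 h 8 with library size alone and 2 to 6 when 1 library was left out. The 2 were Ctgf and Cyr61, without 6 h replicate 2. At 6 h DESeq2, limma-voom and no filter each called 7 members, and median-ratio scaling called 6. In each of these settings Tead2 was called lower and the other called members were higher. All genes called at 6 h numbered 3932, 3619, 4574 (of 17485 tested) and 3708 in these settings, and 4173 with library size alone. Same-numbered libraries shared little (correlation of replicate differences 0.12 for control and 3 h, -0.03 for control and 6 h, 0.02 for 3 h and 6 h), so the numbers were not taken as pairs. With a replicate block 426, 3550 and 126 genes were called and 3, 5 and 0 members. Signs changed only for values not called in the main fit. With library size alone Tead2 at 3 h was 0.022 (-0.204 in the main fit). Taok2 at 3 h was 0.048 (-0.179 in the main fit) and Wwtr1 at 6 h was 0.106 (-0.252). With libraries thinned to the smallest total, Yap1 at 3 h was -0.003 and Tead1 between 6 h and 3 h -0.064. When 1 library was left out, Yap1 at 3 h ranged from -0.103 to 0.186, and between 6 h and 3 h Lats1 from -0.100 to 0.319, Wwtr1 from -0.074 to 0.181 and Tead1 from -0.127 to 0.160. The causes of these differences were not tested. Leaving out 1 library leaves 1 in its group, which is assumed to vary like the other groups. Ankrd1 had too few counts to enter the test in the thinned libraries.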

Other observations

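Of the 6 tested trophoblast markers, 2 had a log2 fold change above 0 at 6 h and the list's median was -0.29. The 2 transcription factors that stood higher are given here, chosen after their values were seen. Gata3 held 1.56 and 0.611 CPM in control, 3.49 and 2.77 CPM at 3 h and 6.14 and 7.13 CPM at 6 h. Tfap2c held 4.52 and 6.84 CPM in control, 12.4 and 9.77 CPM at 3 h and 12.1 and 13.3 CPM at 6 h. Other transcription factors of the list did not stand higher. Eomes held 7.48 and 4.15 CPM in control and 4.79 and 4.10 CPM at 6 h. Hand1 held 1.04 and 0.244 CPM in control and 0.858 and 0.345 CPM at 6 h. The keratin genes of the same list lay lower, Krt8 at 36.8 and 51.6 CPM in control and 19.5 and 21.0 CPM at 6 h, Krt18 at 3.33 and 2.44 CPM in control and 1.16 and 1.30 CPM at 6 h, and Cdx2 stayed at 0 to 3 counts per library.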
